A study of Mus musculus with 3 samples.

Results

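Adult neurogenesis was followed by 9 genes that mark its successive steps in the dentate gyrus transcriptome: Nes and Sox2 for neural stem cells, Eomes and Neurog2 for dividing intermediate progenitors, Neurod1 for the passage from progenitor to neuron, and Dcx, Sox11, Ncam1 and Dpysl3 for young neurons. They were picked by gene symbol, with earlier results of these data known. All 9 were found among the 33101 gene names of the deposited table that carried a value, each with a single entry. The tissue was dentate gyrus micro-dissected from both hemispheres of wild-type male mice of the C57BL/6 strain, 8 to 10 weeks old, with no treatment named in the labels. The 3 libraries of poly(A) RNA form 1 group, and whether a library came from 1 mouse or from several is not stated. The table gives each gene a single value for that group in FPKM, the number of fragments scaled to transcript length and to the mapped fragments. No replicate spread, counting depth or test therefore stands behind any value below, and whether neighbours in an order of levels differ beyond the spread between mice cannot be said.

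New granule cells are made throughout life in the subgranular zone of the dentate gyrus. Radial glia-like stem cells give rise to intermediate progenitors that divide, leave the cell cycle and pass through an immature stage, with a growing axon and dendrites, before they join the mature granule cells. The genes that mark each step are transcription factors and cytoskeletal or adhesion proteins. Some of them are nearly restricted to their step, whereas others are also made by mature neurons or glia, and in whole tissue the level of a gene sums over all of its sources. Fewer cells of a type and less RNA per cell cannot be told apart in such a measurement, so a low value does not count cells.

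The 9 levels spanned 1159-fold, or 198-fold without the lowest gene, Dcx, and did not line up by stage. Ncam1 had the highest level, 64.6 FPKM, ahead of Neurod1 at 29.4 FPKM, Sox2 at 14.1 FPKM and Dpysl3 at 10.5 FPKM. Sox11 stood in the middle at 2.96 FPKM, which is also the median of the 9 genes. Below 1 FPKM lay Nes at 0.989, Eomes at 0.655, Neurog2 at 0.327 and Dcx at 0.0557 FPKM. Ncam1 alone carried 52.3% of the summed level of the 9 genes and Ncam1 with Neurod1 76.0%, whereas Nes, Eomes, Neurog2 and Dcx together carried 1.64%. Of the genes assigned to young neurons, Ncam1, which most neurons and glia also make, exceeded Dcx by 1159-fold. Of those assigned to stem cells, Sox2 exceeded Nes by 14.3-fold. The progenitor genes Eomes and Neurog2 differed by 2.01-fold. Here and below, a ratio to a gene under 1 FPKM rests on a low value, and how well such values were estimated was not tested.

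**Figure D1:**
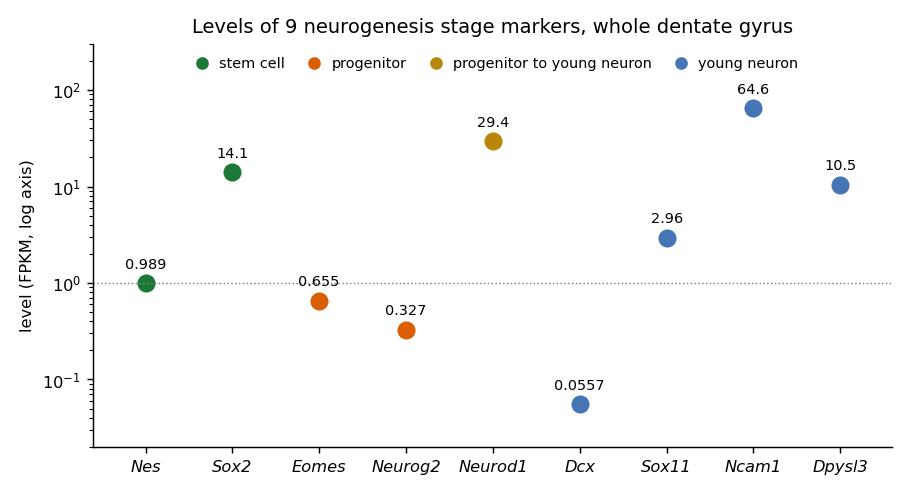
Level of each of the 9 stage markers on a log axis in FPKM, with a single point per gene for the group of 3 libraries, coloured by the stage the gene marks, with a dotted line at 1 FPKM. Both progenitor genes, Nes and Dcx lie below the line, and the 4 young neuron genes reach from 0.0557 to 64.6 FPKM.

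As a set, the markers lay near genes in general in their median and in the share that reached 1 FPKM. None was listed at 0, against 24.1% of protein-coding names. Of the 9, 5 reached 1 FPKM, against 56.4% of the 20135 protein-coding names. Of the 9, 4 reached 10 FPKM, against 30.8% of protein-coding names. The median of all protein-coding names was 2.46 FPKM, close to the 2.96 FPKM of the markers. Ncam1 stood above 95.3% of protein-coding names, Neurod1 above 87.4%, Sox2 above 75.6%, Dpysl3 above 69.9% and Sox11 above 51.8%. Nes stood above 43.6%, Eomes above 41.1%, Neurog2 above 37.7% and Dcx above 31.2%. These last shares include the 24.1% of protein-coding names that were listed at 0. Among names at 0.1 FPKM or more, Sox11 stood above 27.8%, Nes stood above 15.4%, Eomes above 11.8% and Neurog2 above 6.69%, and Dcx lay under that minimum.

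**Figure D2:**
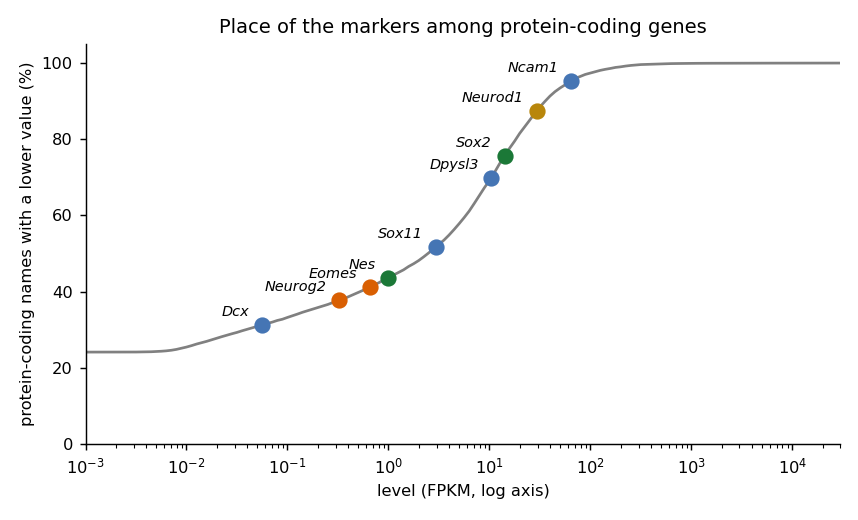
Share of protein-coding names with a lower value (vertical axis, percent) against level (horizontal log axis, FPKM), with the 9 stage markers placed on the curve and coloured by stage. The curve starts at the 24.1% of names listed at 0, and the markers run from Dcx at 31.2% to Ncam1 at 95.3%.

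The larger study concerns DNA methylation, so the sequence at the start sites of the markers was examined for CpG, the dinucleotide most often methylated in mammals. No methylation was measured in these data. RefSeq start-site windows of the GRCm38.p6 build, which hold 250 bases before and 50 after the start, were matched by symbol for 7 of the 9 genes, Dcx having 2 overlapping windows. The ratio of CpG observed to that expected from base composition was 0.84 for Neurod1, 0.82 for Sox2, 0.82 for Sox11, 0.70 for Nes, 0.61 for Eomes and 0.57 for Neurog2. It was 0.20 and 0.22 in the 2 windows of Dcx, which hold 3 CpG each, against 26 in the window of Neurod1. The median over all 32851 windows was 0.38, and 28.8% and 31.6% of windows were lower than those of Dcx. Below are the 250 bases before the start, 5′ to 3′ on the strand of the gene, for the markers with the highest and the lowest ratio, and for Sox11, which marks the same stage as Dcx; capitals mark CpG. They lie at chr2:79456637-79456886 (minus strand) for Neurod1, chr12:27342719-27342968 (minus strand) for Sox11 and chrX:143933220-143933469 (minus strand) for Dcx.
Neurod1: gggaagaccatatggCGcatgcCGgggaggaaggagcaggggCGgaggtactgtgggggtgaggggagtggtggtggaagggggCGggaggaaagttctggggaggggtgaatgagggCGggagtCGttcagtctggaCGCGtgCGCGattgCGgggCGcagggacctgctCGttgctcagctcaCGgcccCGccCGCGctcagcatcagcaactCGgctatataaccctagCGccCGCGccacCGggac
Sox11: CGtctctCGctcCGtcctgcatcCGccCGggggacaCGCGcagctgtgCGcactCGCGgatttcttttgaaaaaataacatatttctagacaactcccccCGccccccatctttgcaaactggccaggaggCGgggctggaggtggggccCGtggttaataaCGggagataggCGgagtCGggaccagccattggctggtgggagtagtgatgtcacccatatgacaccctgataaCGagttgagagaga
Dcx: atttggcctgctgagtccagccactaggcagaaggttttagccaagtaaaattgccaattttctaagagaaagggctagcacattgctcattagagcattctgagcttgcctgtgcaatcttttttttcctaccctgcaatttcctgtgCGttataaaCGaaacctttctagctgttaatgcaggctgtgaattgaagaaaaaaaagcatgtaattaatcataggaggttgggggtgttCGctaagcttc

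The Neurod1 stretch holds 22 CpG, the Sox11 stretch 17, and the Dcx stretch 3. Across genes, CpG ratio and level go together in this table. Over 14070 protein-coding names with a window, the median ratio was 0.18 for names listed at 0, 0.34 for levels above 0 and under 0.1 FPKM, 0.53 from 0.1 to under 1 FPKM, 0.73 from 1 to under 10 FPKM and 0.78 at 10 FPKM or more. Sox2, Neurod1, Sox11, Nes, Eomes and Neurog2 each lay above the median of their own level class, and both Dcx windows lay below the 0.34 of theirs. NEUROD1 and NEUROG2 bind E-boxes, short sites of the form CANNTG. The E-box CAGATG, read on both strands, was in none of the 7 genes' windows and in 17.2% of all windows. The palindromic E-box CAGCTG was in the Sox11 window only, against 16.3% of all windows. CAGGTG was in none of the 7 genes' windows, against 20.2% of all windows. Other forms of CANNTG were not searched. CATATG, such a form, can be read in the Neurod1 and Sox11 stretches above. A match describes letters in this window and is not a binding site.

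**Figure D3:**
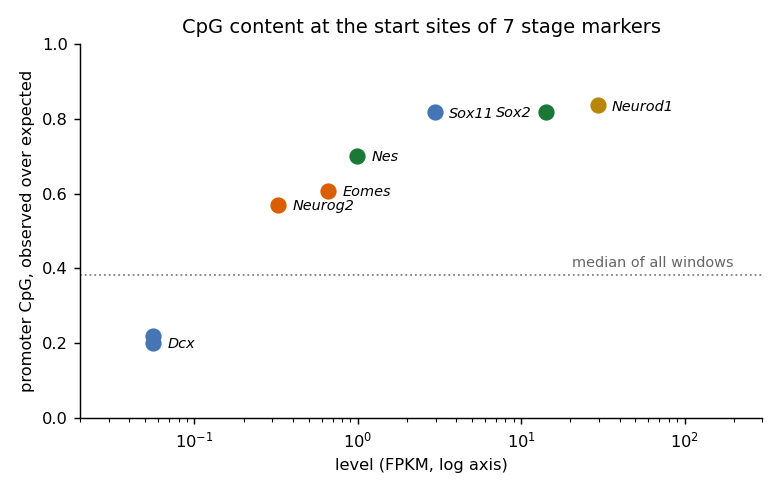
CpG observed over expected in the start-site window (vertical axis) against level (horizontal log axis, FPKM) for the 7 stage markers with a RefSeq window, coloured by stage, with Dcx shown by its 2 windows and a dotted line at the median of all windows, 0.38. Dcx lies below the line at 0.20 and 0.22, and the other 6 genes lie between 0.57 and 0.84.

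Of the stem cell genes, Sox2 was well above Nes. Sox2, a SoxB1 transcription factor that keeps neural stem cells from differentiating and is also made by astrocytes, stood at 14.1 FPKM (listed transcript at chr3:34548927-34551383 of mm9, plus strand). Its close relative Sox3 was at 0.484 FPKM, so that Sox2 exceeded it by 29.2-fold, or by 10.2-fold with 1 FPKM added to both values. Sox1, also of the SoxB1 family, was not matched, so the place of Sox2 in the whole family is not known. Sox2ot, the long noncoding RNA transcribed around Sox2 and named here for its position, was at 2.34 FPKM. Its entry in the table ended 11596 bases before Sox2, so the entries did not overlap, and Sox2 exceeded it by 6.03-fold.

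Nes encodes nestin, the intermediate filament protein of stem cells and progenitors, which some blood vessel cells also make. Its 0.989 FPKM was the second lowest of 9 intermediate filament genes, above Sync at 0.0884 FPKM. Gfap, the astrocyte filament gene that radial glia-like stem cells share, was 188 times higher at 186 FPKM, and the vimentin gene Vim was 21.9 times higher at 21.7 FPKM. With 1 FPKM added to both values, these ratios were 93.9 and 11.4. The neuronal filament genes Nefl, Nefm, Ina and Nefh stood at 152, 56.7, 49.6 and 6.20 FPKM, and the synemin gene Synm at 7.24 FPKM. The transcript listed for Nes (chr3:87775000-87777313 of mm9, plus strand) is a retained-intron form of 1311 nt in GENCODE M21, and the longest coding form has 6126 nt. Gfap carries a like limit, with a noncoding form of 356 nt listed. The sources used here do not say whether a value belongs to the gene or to its listed transcript. Over all protein-coding genes, the median was 5.47 FPKM for the 1266 whose listed transcript was noncoding and 2.58 FPKM for the 15672 with a coding form of at least 0.5 of the longest. For the 1490 with a shorter coding form, as listed for Ncam1 and Dclk2 below, it was 0.0280 FPKM, and 47.3% of them were listed at 0.

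Other stem cell genes, a list of 14 found genes that does not include Nes and Sox2, had a median of 15.4 FPKM, and 12 of them reached 1 FPKM. Slc1a3, a glutamate transporter gene of astrocytes and radial glia, led at 192 FPKM, followed by Gfap. The lysophosphatidic acid receptor gene Lpar1 was lowest at 0.474 FPKM. Astrocyte markers were high in the same tissue. All 6 exceeded 10 FPKM, with a summed level of 528 FPKM, led by the glutamate transporter gene Slc1a2 at 267 FPKM and the connexin gene Gja1 at 94.4 FPKM, with Aldh1l1, listed by a noncoding form of 400 nt, lowest at 26.3 FPKM. Oligodendrocyte precursor markers, whose cells also make Sox2, summed to 61.3 FPKM over 6 genes, from Olig1 at 33.1 FPKM and Pdgfra at 10.1 FPKM down to Neu4 at 0.392 FPKM. Endothelial and pericyte markers summed to 23.2 FPKM over 6 genes, with Rgs5 at 8.22 FPKM, Cldn5 at 7.96 FPKM and Pecam1 listed at 0. Of 4 ependymal markers, Rarres2 was at 3.69 FPKM and Foxj1 at 1.46 FPKM, and Tmem212 was lowest at 0.0290 FPKM, with a sum of 5.25 FPKM. The part of these cell types in the levels of Sox2 and Nes was not tested.

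Both progenitor markers were low. Eomes encodes the T-box factor TBR2 of intermediate progenitors and stood at 0.655 FPKM (chr9:118387330-118394484 of mm9, plus strand). Its relative Tbr1, a factor of postmitotic glutamatergic neurons, was 20.7 times higher at 13.5 FPKM, or 8.79 times with 1 FPKM added to both values. The transcript listed for Tbr1 is a noncoding form of 1370 nt. The immune gene Tbx21 was at 0.156 FPKM. Neurog2, a proneural bHLH factor of glutamatergic progenitors, stood at 0.327 FPKM (chr3:127336054-127338549 of mm9, plus strand). It was the highest of the 3 neurogenin genes, 9.85 times Neurog1 at 0.0332 FPKM, and Neurog3 was listed at 0. With 1 FPKM added to both values, the ratio of Neurog2 to Neurog1 was 1.28, so the order of these low genes carries little weight. Eomes is also made by Cajal-Retzius cells, early-born neurons at the hippocampal fissure. Their 5 markers summed to 7.11 FPKM, with Ndnf at 3.61 FPKM, Trp73 at 2.40 FPKM and Lhx5 lowest at 0.0382 FPKM, and their part in the Eomes level was not tested.

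Further genes of the progenitor step had levels on both sides of 1 FPKM. Of 8 progenitor genes other than the markers, 5 reached 1 FPKM, and the median was 2.95 FPKM. The cyclin gene Ccnd2 led at 15.1 FPKM, followed by the antiproliferative gene Btg2 at 12.2 FPKM, and the transcription factor gene Tfap2c was listed at 0. The 10 cell division genes were lower, at a median of 0.621 FPKM, and 4 of them reached 1 FPKM. Pcna, the replication clamp gene that is also used in DNA repair, was highest at 18.9 FPKM, then the replicative helicase gene Mcm2 at 1.71 FPKM, and the mitotic cyclin gene Ccnb1 was lowest at 0.0577 FPKM. The proliferation marker gene Mki67 (chosen after its value was seen) was at 0.296 FPKM, near Neurog2. Eomes exceeded 5 of the 10 cell division genes and Neurog2 exceeded 3 of them.

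Neurod1 stood far above both progenitor markers, and among the young neuron markers it lay below Ncam1 and above Dpysl3, Sox11 and Dcx. This bHLH factor drives progenitors into neuronal differentiation and is needed for dentate granule cells to form and survive, and its transcript also persists in mature granule cells. At 29.4 FPKM (chr2:79292678-79296908 of mm9, minus strand) it exceeded Eomes by 44.8-fold and Neurog2 by 90.0-fold. Within its family, Neurod2, a factor of maturing and mature glutamatergic neurons, was 1.98 times higher at 58.2 FPKM. Neurod1 exceeded Neurod6 at 8.53 FPKM by 3.44-fold, and Neurod4, a progenitor factor, was at 0.0647 FPKM. The predicted gene Gm17325 overlaps 2767 bases of the Neurod1 entry on the other strand and was at 0.0115 FPKM, and the protocol names no step that keeps strand.

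Among the young neuron markers, Dcx was the lowest of all 9 genes. Dcx encodes doublecortin, a microtubule-binding protein of migrating and immature neurons and the most used marker of adult neurogenesis. Its 0.0557 FPKM (chrX:140290385-140367854 of mm9, minus strand) lay below all 10 cell division genes. The lowest of these, Ccnb1, was at 0.0577 FPKM, so the order of Dcx and Ccnb1 carries little weight. The listed transcript of Dcx is the longest coding form of 6 transcripts annotated in GENCODE M21. It has 9074 nt there, against 4095, 3120 and 1333 nt for the other coding forms. The length behind the deposited value was not checked. The doublecortin-like kinase genes, relatives of Dcx that are made in mature neurons, were all higher. Dclk1 was at 99.4 FPKM, 1784 times Dcx, Dclk2 at 23.6 FPKM, 425 times, and Dclk3 at 15.6 FPKM, 280 times. The listed transcript of Dclk2 is a short coding form of 4012 nt. With 1 FPKM added to both values, these ratios were 95.1, 23.3 and 15.7, and the direction was the same.

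Sox11, a SoxC transcription factor that is switched on in newborn neurons and is needed for their differentiation, stood at 2.96 FPKM (chr12:28025562-28027574 of mm9, minus strand), 53.1 times Dcx. The other SoxC genes were close to it, with Sox12 at 5.11 FPKM and Sox4 at 4.50 FPKM, which exceeded Sox11 by 1.73-fold and 1.52-fold. Of all the families examined, the SoxC genes spanned the narrowest range, and Sox11 was the lowest of the 3. The entry of Sox11 in the table spans 2013 bases, whereas the same transcript has 8311 nt in GENCODE M21, so the listed model was shorter than the later one.

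Ncam1, the neural cell adhesion molecule, was the highest marker at 64.6 FPKM (chr9:49312433-49606834 of mm9, minus strand). It exceeded its relative Ncam2, at 11.0 FPKM, by 5.87-fold. Young neurons are marked by the polysialic acid chain on NCAM1, not by NCAM1 itself, which most neurons and glia make. The 2 enzymes that build that chain were low beside their substrate, with St8sia4 at 4.19 FPKM and St8sia2, the enzyme of developing brain, at 0.752 FPKM. St8sia4 exceeded St8sia2 by 5.57-fold, or by 2.96-fold with 1 FPKM added to both values. The listed transcript of Ncam1 is a coding form of 3088 nt, under 0.5 of the longest coding form of 6564 nt. The predicted genes Gm11149 and Gm17616 overlap it on the other strand and were at 0.0775 FPKM and listed at 0.

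Dpysl3 encodes CRMP4, a collapsin response mediator that acts on the cytoskeleton of growing axons. It stood at 10.5 FPKM (chr18:43480633-43597940 of mm9, minus strand), 3.54 times Sox11. All 5 genes of its family exceeded 10 FPKM, and Dpysl3 was the lowest of them. Crmp1 was 9.62 times higher at 101 FPKM, Dpysl2, the family member of adult neurons and oligodendrocytes, 3.41 times higher at 35.7 FPKM, Dpysl4 2.87 times higher at 30.1 FPKM, and Dpysl5 1.25 times higher at 13.1 FPKM.

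**Figure D4:**
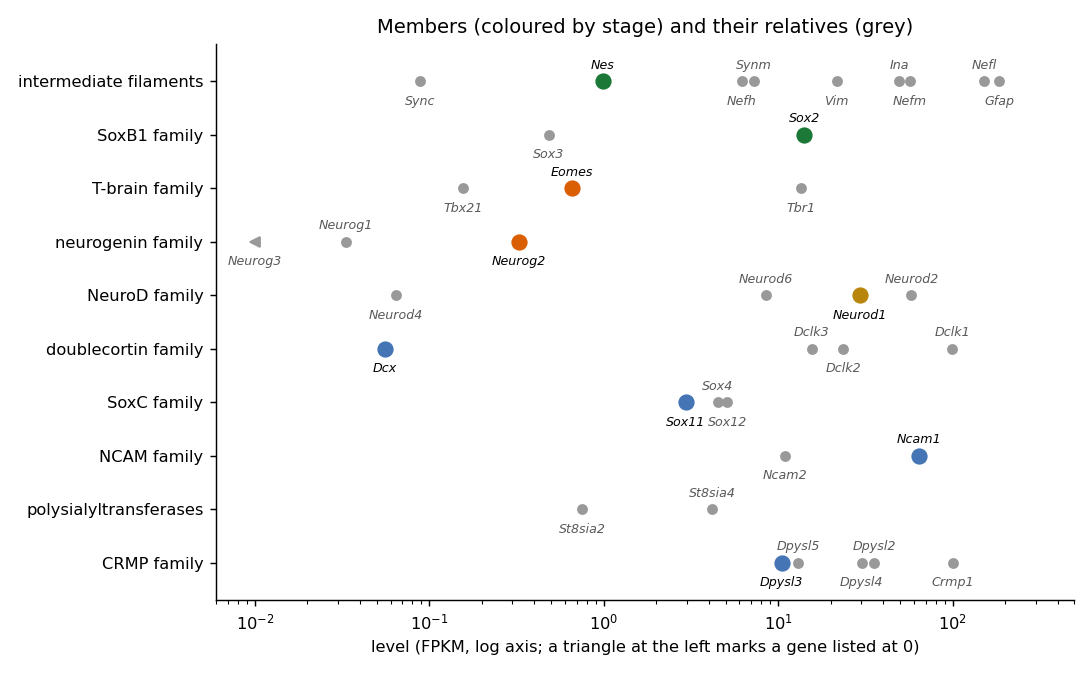
Level of each stage marker (coloured by stage) and of its relatives (grey) on a log axis in FPKM, 1 row per gene family, with a triangle for a gene listed at 0. Among the genes found, Sox2, Neurog2 and Ncam1 are the highest of their families, and Dcx, Sox11 and Dpysl3 the lowest. Sox1, a relative of Sox2, was not matched and is not shown. Dcx stands apart from the 3 Dclk genes, which lie between 15.6 and 99.4 FPKM.

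Most other genes used to mark young neurons reached 1 FPKM. The median of 19 such genes was 13.1 FPKM, with 16 of them at 1 FPKM or more and 10 at 10 FPKM or more. The part of mature neurons in these levels was not tested. The tubulin gene Tubb2b was highest at 203 FPKM, followed by Crmp1, and Elavl4, an RNA-binding protein gene of neurons, was listed at 0. Tubb3, the neuronal tubulin gene whose product is common in neurons of all ages, was at 0.158 FPKM (chosen after its value was seen). Its listed transcript is the longest coding form in GENCODE M21, 1868 nt, and the length behind its deposited value was not checked. Dcx thus shared a value under 1 FPKM with 3 of these 19 genes, St8sia2 being the third, and how well such low values were estimated was not tested.

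The mature granule cell list was the highest of the stage lists, and only the 2 most abundant markers reached into its range. All 9 granule cell genes exceeded 10 FPKM, with a median of 44.8 FPKM, from C1ql2 at 111 FPKM and C1ql3 at 102 FPKM to the polo-like kinase family gene Plk5 at 21.6 FPKM. The gene at that median is listed by a short coding form of 3285 nt, against 7913 nt for its longest coding form. With that gene left out, the median was 60.4 FPKM. Ncam1 exceeded 5 of the 9 and Neurod1 exceeded 2 of them, and the other 7 markers lay below all 9. On the log2(FPKM + 0.1) scale, the difference of medians from the granule cell list was -1.66 for the stem cell list, -1.77 for the young neuron list, -3.88 for the progenitor list and -5.96 for the cell division list. For the 9 markers themselves it was -3.87. These differences depend on the genes that each list holds, and the lists were chosen with earlier results of these data known. Of the other neurons that the dissection could hold, 6 CA pyramidal markers summed to 41.2 FPKM, with Grik4 at 16.9 FPKM, Wfs1 at 8.81 FPKM and Pou3f1 listed at 0. The 6 interneuron markers summed to 220 FPKM, with Sst at 109 FPKM, Gad1 at 87.1 FPKM and Lhx6 at 0.444 FPKM. Gad1 is listed by a short coding form of 398 nt, against 3355 nt for its longest coding form. Their part in the levels of Ncam1, Neurod1 and Dpysl3 was not tested.

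**Figure D5:**
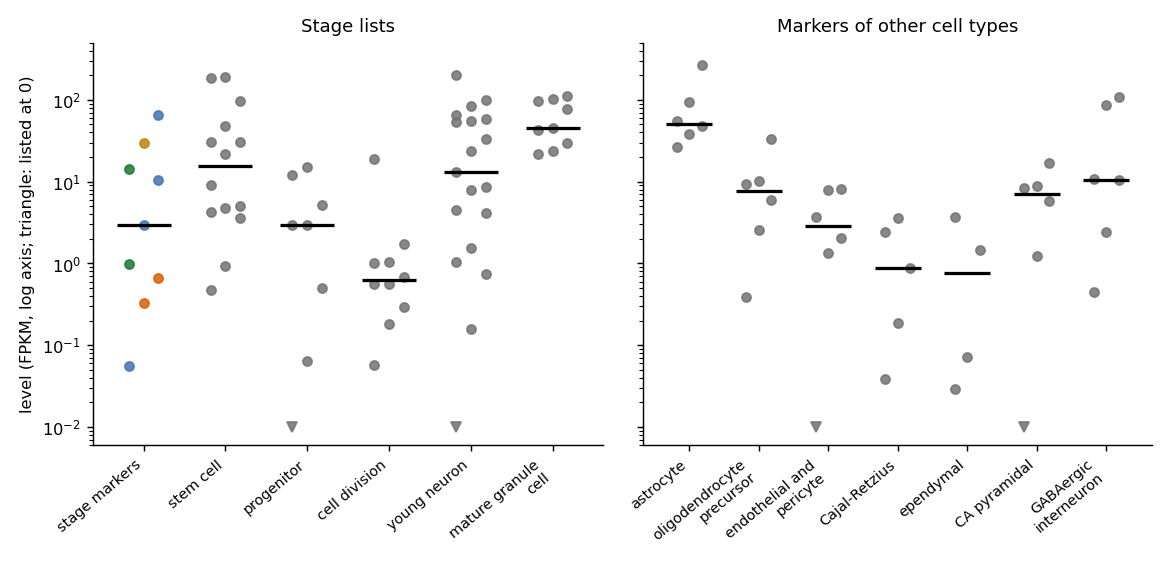
Level of every gene found in the stage lists (left) and in the marker lists of other cell types (right) on a log axis in FPKM, with a bar at each median and a triangle for a gene listed at 0; the 9 stage markers are coloured by stage. The medians are 15.4, 2.95, 0.621, 13.1 and 44.8 FPKM for the stem cell, progenitor, cell division, young neuron and mature granule cell lists, against 2.96 FPKM for the 9 markers.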

How the data were processed

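Random-primed libraries of fragmented poly(A) RNA were sequenced on an Illumina HiSeq 2000, per the labels' protocols. The submitters' processing notes name TopHat and Cufflinks and the builds mm9 and NCBIM37; versions, and how the 3 libraries became 1 value, are not stated there. The authors deposited FPKM values in 1 column, present for 36469 of 37681 entries. Depth is therefore unknown, and no interval or detection limit is given. Entries sharing a symbol were summed, a 0 can be a failed estimate, and starts were made 1-based.

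The members and lists were chosen with earlier results of these data known. Of 127 listed genes, 123 were matched by symbol and 3 by identifier; Sox1 was not matched. Levels are described without a test, as FPKM ratios or as differences of log2(FPKM + 0.1), a scale that shrinks differences of low genes. Named were all markers, their relatives, and the 2 highest and the lowest gene of each list; others are marked. Transcript forms came from GENCODE M21 by identifier and start-site windows from RefSeq (GRCm38.p6); for 6 of 8 windows the last 20 bases were found in a GENCODE transcript of the gene. The functions were tested on simulated data. Alternatives changed the pseudocount (1 and 0.01 FPKM), list summary, genes kept, shared symbols and background. Python 3.11.15, pandas 2.3.3, numpy 2.4.6 and matplotlib 3.10.9 were used.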

Additional observations from a re-analysis of the deposited data

How the results depend on the processing

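With no replicate spread to compare with, a value was taken as moved when it changed by more than 1.5 times, or by the same step on the log2 scale. Of 107 alternative values, 27 moved. Direction was checked only for the 20 list differences, and none of them changed direction. A changed pseudocount alone keeps the order of these medians, so it could not turn them. The levels of the 9 markers were the same with the highest entry kept, since each had a single entry. With means of log2 values in place of medians, the progenitor list was at 1.66 FPKM, and the differences from the granule cell list were -4.88 for the progenitor list and -2.36 for the young neuron list. With a pseudocount of 1 FPKM, the difference of the cell division list was -4.82. Of 26 family ratios, 17 moved with a pseudocount of 1 FPKM, which by construction cannot turn their direction. Alternatives that left out genes with a noncoding or short listed transcript were chosen after seeing the data, and moved no median past the limit. Forms were classed by their GENCODE M21 lengths, so Sox11 was kept, although its entry spans 2013 bases against 8311 nt there. Medians without Sox11 were not computed. No paired analysis was possible because the series has 1 group and 1 value column. Leaving out each library was not run for the same reason, and protein identity within families was not analysed here. Unknown depth limits the markers below 1 FPKM most.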
